A study of Mus musculus with 5 samples.

Results

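Genes of the epidermal lipid barrier and of ceramide synthesis were followed in cells sorted from mouse mammary lesions. The set comprised 9 genes chosen by name, Abca12, Alox12b, Aloxe3, Cers3, Elovl4, Ugcg, Sptlc2, Smpd1 and Nipal4, and all 9 were found among the 24347 gene symbols of the deposited tables, each as 1 RefSeq transcript. The study compared 2 Krt6a+ libraries, numbered 2 and 3, with 3 WAP+ libraries, numbered 1 to 3. The labels call the first population keratin 6a+ precancerous stem cells and the second whey acidic protein (WAP)+ cells, and both came from mammary precancerous lesions of MMTV-Wnt-1 transgenic mice on a mixed FVB, SJL and C57BL/6 background. In this model the MMTV LTR drives Wnt-1 in the mammary epithelium, and hyperplastic lesions begin by 4 to 6 weeks of age; the age of the sampled mice was not given. Cells were sorted with an antibody to TVA into small pools, and the cDNA of each pool was amplified to make 1 library. The labels do not say what drives TVA in each population, nor whether libraries came from separate mice. P-values therefore measured the spread between these libraries, which may be technical.

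Mature stratified epidermis keeps water in with lipid sheets between its dead outermost cells. Serine palmitoyltransferase starts ceramide synthesis, elongases and ceramide synthases set the length of the acyl chain, and a glucosyltransferase caps the product so that it can be loaded into lamellar bodies and secreted. Epidermal lipoxygenases then oxidise the linoleate carried by the longest ceramides, a step needed to fix lipid to the cornified envelope. Mammary epithelium makes membrane sphingolipids by the same general enzymes but does not normally build this barrier, whose dedicated genes include Abca12, Alox12b, Aloxe3, Cers3, Elovl4 and Nipal4. In humans, loss of Abca12, Alox12b, Aloxe3, Cers3 or Nipal4 orthologs causes congenital ichthyosis.

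Levels are the authors' FPKM, fragments scaled to transcript length and library depth, so they can be set side by side between genes. FPKM reached 1 in 8112 and 8580 genes of the Krt6a+ libraries and in 8202 to 8900 of the WAP+ libraries. Krt6a, the keratin for which the first population is named, had FPKM 1380 and 1133 in the Krt6a+ libraries, against 50.0 to 168 in the WAP+ libraries, and Wap was listed at 0 in both Krt6a+ libraries and had 13.9 to 126 in the WAP+ libraries. An exact 0 can be a failed estimate: of the genes that every cell uses, Gapdh was listed at 0 in 3 libraries and Rpl11 in all 5. The epithelial genes Epcam and Cdh1 were present in every library, at 549 to 908 and 33.3 to 66.7 in the Krt6a+ libraries, against 1108 to 1493 and 59.3 to 76.9 in the WAP+ libraries. Basal and luminal keratins differed between the populations without overlap. Of the basal keratins, Krt5 had 374 to 434 in the Krt6a+ libraries, against 13.4 to 34.7 in the WAP+ libraries (log2 4.02), and Krt14 had 2264 to 2284, against 130 to 936 in WAP+ (log2 2.14). Of the luminal keratins, Krt8 had 66.2 to 719 in the Krt6a+ libraries, against 1664 to 1917 in the WAP+ libraries (log2 -3.11), and Krt18 had 353 to 1283, against 3335 to 4018 in WAP+ (log2 -2.54). Of 9 macrophage and leukocyte markers, 5 were listed at 0 throughout, Ptprc, Adgre1, Lyz2, Itgam and Fcer1g, and the summed FPKM of the list was 7.39 to 18.6 in the Krt6a+ libraries, against 13.5 to 29.9 in the WAP+ libraries, most of it Cd68. Of 6 adipocyte markers, Adipoq, Plin1, Cidec, Lep and Car3 were listed at 0 throughout. The list was thus all Fabp4, at 0 in both Krt6a+ libraries and at 2188, 65.8 and 20.3 in WAP+ libraries 1 to 3. Fabp4 alone does not establish adipocytes. Of 7 sebaceous gland markers, Awat1 and Elovl3 were at 0 throughout and the list summed to 1.15 to 4.76 in the Krt6a+ libraries, against 3.30 to 6.95 in the WAP+ libraries. The 6 fibroblast markers summed to 57.5 to 210 in the Krt6a+ libraries, against 8.60 to 84.2 in the WAP+ libraries, largely Dcn, and the 5 endothelial markers to 0.0902 to 0.744 in the Krt6a+ libraries, against 0.0349 to 23.6 in the WAP+ libraries, highest in WAP+ library 1. The part of the basal and luminal difference, and of these other cell types, in the results below was not tested.

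Promoter sequences are shown for Abca12 and Cers3, both of which had a higher level in each Krt6a+ library than in any WAP+ library, and for Smpd1, the highest of the 9 genes in every library. Each is the 250 bases before the RefSeq start in GRCm38.p6 (mm10), 5′ to 3′ on the strand of the gene. Capitals mark matches, on either strand, to a GC box (GGGCGG), the site of Sp and KLF factors, or a CCAAT box (CCAAT).
Abca12, chr1:71414911-71415160, minus strand: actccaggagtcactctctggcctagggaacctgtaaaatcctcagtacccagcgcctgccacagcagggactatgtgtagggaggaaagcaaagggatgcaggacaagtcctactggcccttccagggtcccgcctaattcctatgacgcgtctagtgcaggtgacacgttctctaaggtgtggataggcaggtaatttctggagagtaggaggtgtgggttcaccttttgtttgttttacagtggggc
Cers3, chr7:66743254-66743503, plus strand: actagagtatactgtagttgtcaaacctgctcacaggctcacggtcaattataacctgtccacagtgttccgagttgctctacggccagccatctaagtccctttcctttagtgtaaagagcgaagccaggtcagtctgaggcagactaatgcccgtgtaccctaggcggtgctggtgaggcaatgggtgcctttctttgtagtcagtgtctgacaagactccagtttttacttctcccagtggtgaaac
Smpd1, chr7:105554110-105554359, plus strand: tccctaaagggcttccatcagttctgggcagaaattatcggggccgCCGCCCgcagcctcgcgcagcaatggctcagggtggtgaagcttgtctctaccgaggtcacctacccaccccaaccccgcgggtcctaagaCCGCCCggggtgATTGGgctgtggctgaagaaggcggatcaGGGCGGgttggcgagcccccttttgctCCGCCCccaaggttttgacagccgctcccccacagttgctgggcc
A GC box was found in 6 of the 8 genes with a promoter in the table, Alox12b, Elovl4, Ugcg, Sptlc2, Smpd1 and Nipal4, and in 32.7% of all 32851 promoter windows of the same length. A CCAAT box was found in Sptlc2 and Smpd1, and in 33.8% of all windows. Another 4 motifs were searched on both strands and were in 0 of the 8 windows. A grainyhead site, spelled AACCGGTT, was in 0.116% of all windows. An AP-1 site, spelled TGANTCA, was in 6.75%. The promoter box spelled TATAAA was in 12.4%, and an E-box, spelled CACGTG, in 6.02%. The Abca12 and Cers3 windows thus held none of the 6 motifs. The GC content was 53.2% for Abca12 and 49.6% for Cers3, near the median of 52.4%, and 64.8% for Smpd1. A match describes the letters only, and the absence of one says nothing about any factor.

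The 7 tested genes of the set differed in direction, 4 with a positive and 3 with a negative difference, and none passed. Over all tested genes, 49.8% had a positive difference. For the comparison, FPKM was scaled per library and log2(scaled FPKM + 1) was fitted with limma across the 9682 genes with FPKM 1 or more in at least 2 libraries, and differences are Krt6a+ minus WAP+. Of the 9 genes 7 were tested, and 0 passed an adjusted p of 0.05 in either direction (limma, Benjamini-Hochberg; adjusted p from 0.292 to 0.969), where 0.692% of all tested genes did, 0.258% higher and 0.434% lower. Before adjustment 0 of 7 passed 0.05, against 17.1% of all tested genes. Abca12 and Cers3 were higher in both Krt6a+ libraries than in any WAP+ library, as were 17.4% of tested genes, Aloxe3 was lower, as were 17.4%, and the other 4 overlapped. These 3 of 7 stood beside 34.8% of all tested genes without overlap. Without Krt6a+ library 3 the count without overlap was 1 higher, since Abca12 was then not tested, and 2 lower, Smpd1 joining Aloxe3, beside 31.6% higher and 33.2% lower of all genes tested with that single Krt6a+ library. Without Krt6a+ library 2 it was 3 higher (Cers3, Sptlc2 and Elovl4, with Abca12 not tested) and 2 lower (Aloxe3 and Ugcg), beside 31.5% and 30.4% of all genes. Without WAP+ library 2 it was 2 lower, Aloxe3 and Smpd1, beside 22.1%. Alox12b and Nipal4 did not pass the filter, and Abca12 passed it only through its 2 Krt6a+ libraries. The median difference of the 7 was 0.10, against -0.0072 over all tested genes. In these pools, fewer cells expressing a gene and less RNA per cell cannot be told apart.

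**Figure D1:**
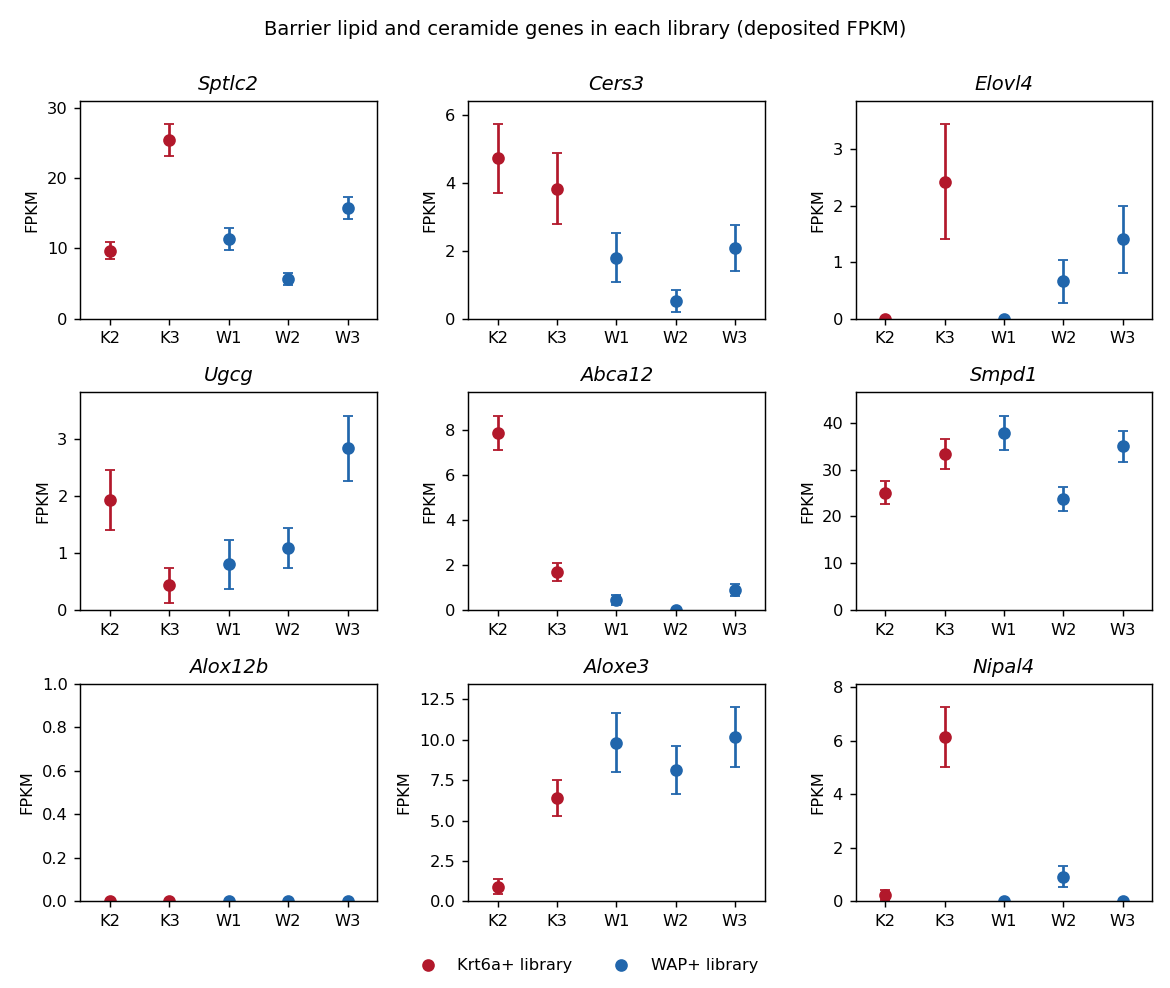
Deposited FPKM of each gene (y axis, a scale of its own per panel, starting at 0) in Krt6a+ libraries 2 and 3 (K2, K3, red) and WAP+ libraries 1 to 3 (W1 to W3, blue); points are FPKM and bars the authors' 95% bounds, which cover counting error only. Abca12 and Cers3 were above all WAP+ libraries in both Krt6a+ libraries, Aloxe3 below them, and Alox12b was listed at 0 in all 5.

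Sptlc2, the catalytic subunit of serine palmitoyltransferase, was among the higher genes of the set. Its FPKM was 9.66 and 25.4 in the Krt6a+ libraries (2 and 3), against 11.3, 5.59 and 15.7 in the WAP+ libraries (1 to 3). Krt6a+ library 3 was the highest of the 5, while library 2 lay within the WAP+ range, so the groups overlapped. The scaled mean was 16.2 ± 8.93 (SD, n = 2) in the Krt6a+ libraries, against 11.4 ± 6.06 (SD, n = 3) in the WAP+ libraries, and the log2 difference, 0.49 ± 0.63 SE, did not pass (limma, adjusted p = 0.749). It was -0.06 without Krt6a+ library 3. The gene (NM_011479, 12 exons) maps to chromosome 12, 87307889 to 87388230, on the minus strand in mm10, where the lincRNA Gm26764 overlaps it on the other strand, and the library kit does not mark strand. The order of the subunits differed between libraries. Sptlc2 took 70.0% and 76.1% of the summed FPKM of Sptlc1, Sptlc2 and Sptlc3 in the Krt6a+ libraries, against 49.6%, 43.9% and 72.1% in the WAP+ libraries. Sptlc3 was listed at 0 in WAP+ libraries 1 and 3, and the shares take each 0 as listed. Sptlc1, the partner that Sptlc2 needs for activity, had FPKM 3.98 and 3.91 in the Krt6a+ libraries, against 11.5, 5.99 and 6.10 in the WAP+ libraries, without overlap (limma, log2 -0.88 ± 0.58 SE, adjusted p = 0.478).

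Cers3, the ceramide synthase of skin and testis that accepts ultra-long acyl chains, was low in both populations and higher in the Krt6a+ libraries without overlap. FPKM was 4.72 and 3.83 in the Krt6a+ libraries (2 and 3), against 1.80, 0.520 and 2.08 in the WAP+ libraries (1 to 3). The 2 Krt6a+ libraries lay close together, and WAP+ library 2 was the lowest. Read as counting error, the authors' 95% bounds imply about 88 and 55 fragments in the Krt6a+ libraries, against 25, 11 and 39 in the WAP+ libraries. As deposited, the lower 95% bound in Krt6a+ library 3, 2.80, just exceeded the upper bound in WAP+ library 3, 2.75. With the library factors applied, 1.13 and 0.873, the bounds of these libraries overlapped. Scaled means were 4.11 ± 1.01 (SD, n = 2) in the Krt6a+ libraries, against 1.51 ± 0.908 (SD, n = 3) in the WAP+ libraries, and the log2 difference of 1.08 ± 0.67 SE did not pass (limma, adjusted p = 0.455). Cers3 (NM_001164201, 11 exons) maps to chromosome 7, 66743504 to 66823692, on the plus strand. It was a minor member of its family. Cers2, which makes ceramides of very long chains in most tissues, had FPKM 163 and 39.2 in the Krt6a+ libraries, against 87.9, 69.0 and 61.1 in the WAP+ libraries. These were the highest listed values of the family in every library. Cers3 took 2.62% and 6.60% of the summed FPKM of the 6 ceramide synthases in the Krt6a+ libraries, against 1.88%, 0.686% and 2.94% in the WAP+ libraries. Cers5 was second by listed FPKM in every library, at 12.4 and 13.4 in the Krt6a+ libraries, against 4.14, 6.35 and 6.24 in the WAP+ libraries (limma, log2 0.98 ± 0.57 SE, adjusted p = 0.428). Cers1 was listed at 0 throughout and could not be ranked, and the shares take each 0 as listed.

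Elovl4, the elongase that makes the ultra-long fatty acids Cers3 uses, was detected in 3 of the 5 libraries. It was listed at FPKM 0 in Krt6a+ library 2 and WAP+ library 1, and had 2.43 in Krt6a+ library 3, 0.661 in WAP+ library 2 and 1.40 in WAP+ library 3. Each population thus held a library at 0, and no value rested on more than about 23 fragments. The log2 difference was 0.10 ± 0.72 SE (limma, adjusted p = 0.969), and it was -0.26 without WAP+ library 1. Elovl4 (NM_148941, 6 exons) maps to chromosome 9, 83778692 to 83806305, on the minus strand. Elovl1, the general elongase of saturated very long chains, had the highest listed FPKM of the 7 elongases in every library. Its share of their summed FPKM was 75.2% and 67.2% in the Krt6a+ libraries, against 69.6%, 87.7% and 84.1% in the WAP+ libraries. Elovl4 took at most 2.89% of the family in the Krt6a+ libraries, against 1.92% in the WAP+ libraries. Elovl2 and Elovl3 were listed at 0 throughout and could not be ranked, and the shares take each 0 as listed. The FPKM of Elovl1 was 45.1 and 56.5 in the Krt6a+ libraries, against 81.1, 72.8 and 61.6 in the WAP+ libraries, without overlap (limma, log2 -0.61 ± 0.36 SE, adjusted p = 0.437).

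**Figure D2:**
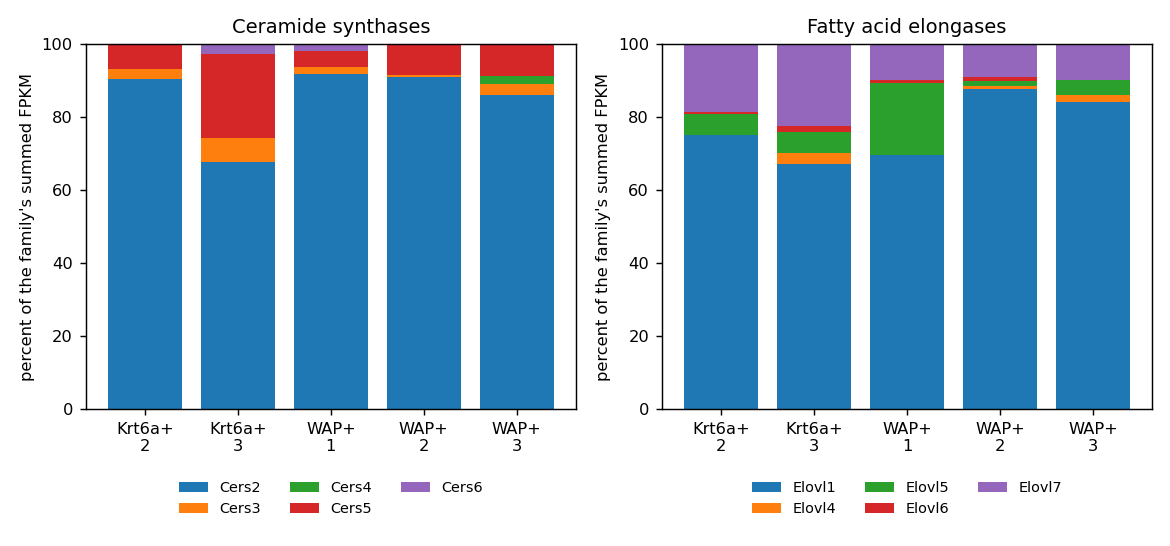
Share of the summed FPKM of the ceramide synthases (left) and fatty acid elongases (right) taken by each gene (y axis, percent), 1 bar per library; genes at 0 in all libraries are left out. Cers2 and Elovl1 had the highest listed FPKM in all 5 libraries, and Cers3 and Elovl4 reached at most 6.60% and 2.89%, with each 0 taken as listed.

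Ugcg, the glucosyltransferase that makes glucosylceramide, was low in both populations. FPKM was 1.93 and 0.432 in the Krt6a+ libraries (2 and 3), against 0.800, 1.08 and 2.83 in the WAP+ libraries (1 to 3). The highest value was in WAP+ library 3 and the lowest in Krt6a+ library 3, and the groups overlapped. These values rest on about 54 and 8 fragments in the Krt6a+ libraries, against 14, 40 and 96 in the WAP+ libraries. The log2 difference was -0.31 ± 0.70 SE (limma, adjusted p = 0.876), and it was 0.25 without Krt6a+ library 3 and 0.05 without WAP+ library 3. Ugcg (NM_011673, 9 exons) maps to chromosome 4, 59189550 to 59222833, on the plus strand.

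Abca12, the transporter that loads glucosylceramide into lamellar bodies, had the largest positive difference of the set. FPKM was 7.89 and 1.68 in the Krt6a+ libraries (2 and 3), against 0.462, 0 and 0.893 in the WAP+ libraries (1 to 3). Both Krt6a+ libraries were above the WAP+ libraries, but they differed 5.39-fold from each other in scaled FPKM. The values rest on about 421 and 66 fragments in the Krt6a+ libraries, against 18 and 42 in WAP+ libraries 1 and 3, and the authors' 95% bounds, 7.12 to 8.66 and 1.27 to 2.10 in the Krt6a+ libraries, did not meet. Scaled means were 4.77 ± 4.64 (SD, n = 2) in the Krt6a+ libraries, against 0.476 ± 0.515 (SD, n = 3) in the WAP+ libraries. The log2 difference of 1.75 ± 0.76 SE, 3.35-fold on the log2(scaled FPKM + 1) scale, did not pass (limma, unadjusted p = 0.0501, adjusted p = 0.292). It was 1.49 without WAP+ library 2, the library at 0 (adjusted p = 0.509). Abca12 is a long gene of 53 exons (NM_175210, minus strand of chromosome 1, 71243090 to 71414910) with a transcript of 8323 bases. The 3 tested genes whose centred log2 profile over the 5 libraries was nearest to that of Abca12 were Gabbr1, Laptm4b and Pogz, with root mean square differences of 0.0545, 0.121 and 0.130. Gabbr1, a subunit of the GABA-B receptor, had FPKM 7.33 and 1.52 in the Krt6a+ libraries, against 0.428, 0 and 0.711 in the WAP+ libraries.

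Smpd1, the lysosomal acid sphingomyelinase that also frees ceramide from sphingomyelin in the outer epidermis, had the highest FPKM of the 9 genes in every library. FPKM was 25.1 and 33.4 in the Krt6a+ libraries (2 and 3), against 37.9, 23.8 and 35.0 in the WAP+ libraries (1 to 3). As deposited, the Krt6a+ values lay within the WAP+ range. In scaled FPKM, on which overlap was counted, Krt6a+ library 2 was at 25.6, just below WAP+ library 2, the lowest, at 26.1. Krt6a+ library 3, at 29.6, lay within the range, so the groups overlapped. Scaled means were 27.6 ± 2.84 (SD, n = 2) in the Krt6a+ libraries, against 33.2 ± 6.97 (SD, n = 3) in the WAP+ libraries, and the log2 difference was -0.24 ± 0.42 SE (limma, adjusted p = 0.831). With about 353 to 449 fragments in each library, it had the highest minimum over the libraries of the 9 genes. Smpd1 (NM_011421, 6 exons) is compact, on the plus strand of chromosome 7 from 105554360 to 105558389. It took 91.4% and 61.9% of the summed FPKM of the 5 sphingomyelinase genes in the Krt6a+ libraries, against 69.1%, 81.1% and 92.6% in the WAP+ libraries. Smpd3 was listed at 0 throughout, and the shares take each 0 as listed.

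Of the paired epidermal lipoxygenases, 1 had measured values. Alox12b, which oxidises the linoleate of the longest ceramides, was listed at 0 in all 5 libraries, while Aloxe3, which converts its hydroperoxide product to an epoxy-alcohol, was measured in all 5. With Rpl11 also at 0 in all 5, the zeros of Alox12b give no level to set against that of Aloxe3. The FPKM of Aloxe3 was 0.902 and 6.37 in the Krt6a+ libraries (2 and 3), against 9.81, 8.13 and 10.2 in the WAP+ libraries (1 to 3). The WAP+ libraries were close together and above both Krt6a+ libraries, and Krt6a+ library 2 was far below library 3, by 6.14-fold in scaled FPKM. Aloxe3 had the largest negative difference of the set, with scaled means of 3.29 ± 3.34 (SD, n = 2) in the Krt6a+ libraries, against 9.73 ± 1.66 (SD, n = 3) in the WAP+ libraries, log2 -1.58 ± 0.71 SE, which did not pass (limma, unadjusted p = 0.0569, adjusted p = 0.309). It was -0.68 (adjusted p = 0.653) when Krt6a+ library 2 was left out, and -2.45 (adjusted p = 0.127) when library 3 was. The values rest on about 15 and 131 fragments in the Krt6a+ libraries, against 115 to 119 in the WAP+ libraries. Both genes lie on the plus strand of chromosome 11 and have 15 exons, Aloxe3 (NM_011786) from 69126377 to 69149115 and Alox12b (NM_009659) from 69157072 to 69169791, with 7956 bases between them.

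Nipal4, a membrane protein of differentiated keratinocytes, was found mainly in Krt6a+ library 3. FPKM was 0.238 and 6.14 in the Krt6a+ libraries (2 and 3), against 0, 0.921 and 0 in the WAP+ libraries (1 to 3). Krt6a+ library 2 lay below WAP+ library 2, so the groups overlapped. The Krt6a+ libraries differed 22.4-fold in scaled FPKM, from about 118 fragments in library 3 and 6 in library 2, and 89.0% of tested genes had a smaller gap between these libraries on the log2 scale. With FPKM 1 or more in 1 library it did not pass the filter, and with no filter its log2 difference was 1.16 ± 0.81 SE (limma, adjusted p = 0.580). Nipal4 (NM_172524, 6 exons) maps to chromosome 11, 46148155 to 46166359, on the minus strand.

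The 2 Krt6a+ libraries differed from each other in most of the genes measured. Library 2 had more Abca12 and Ugcg, and library 3 more Aloxe3, Nipal4, Sptlc2 and Elovl4. On the log2(scaled FPKM + 1) scale the gap, library 2 minus library 3, was 1.86 for Abca12, 1.10 for Ugcg, -1.79 for Aloxe3, -2.37 for Nipal4, -1.66 for Elovl4 and -1.11 for Sptlc2, beside a median absolute gap of 0.85 over all tested genes. Cers3 and Smpd1 had gaps of 0.40 and -0.20. Krt8 and Krt18, luminal keratins, had FPKM 66.2 and 353 in library 2 and 719 and 1283 in library 3, further from the WAP+ values in library 2. Abca12 and Aloxe3 were also further from the WAP+ values in library 2, while Nipal4, Sptlc2, Elovl4 and Ugcg were further in library 3. The part of luminal cells in the gaps between the Krt6a+ libraries was not tested.

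**Figure D3:**
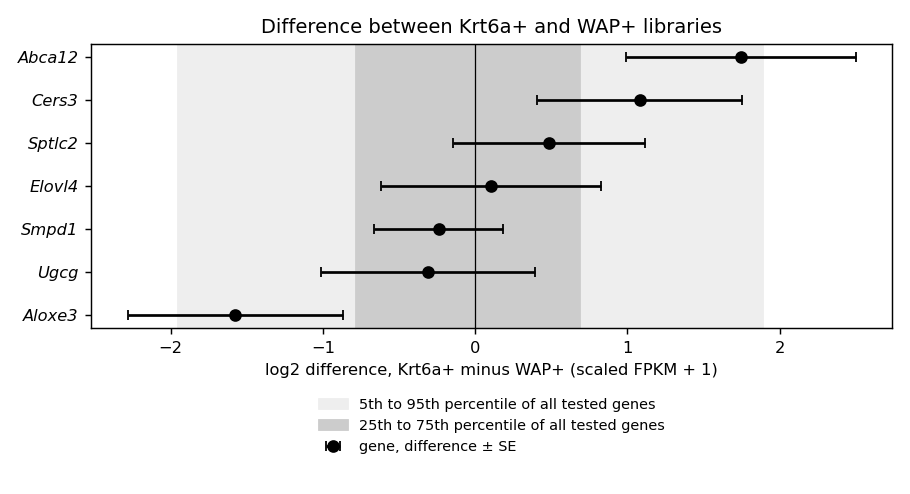
Log2 difference, Krt6a+ minus WAP+, of the 7 tested genes (points) with the moderated SE (bars); grey bands hold the middle of the differences of all 9682 tested genes. Abca12 at 1.75 and Aloxe3 at -1.58 were the extremes, and both lay inside the band from -1.95 to 1.89 that runs from the 5th to the 95th percentile.

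Around these 9 genes, 92 other genes from 9 lists were present in the tables. The lists covered sphingolipid and barrier lipid metabolism and, in 1 list, transcription factors of barrier genes. Of the 92, 13 were listed at 0 in every library and 71 were tested. Counts given for single lists include those of the 9 genes that the list holds. Of the 71, 0 passed over all genes in either direction (limma, Benjamini-Hochberg). Before adjustment, 11 (15.5%) were higher and 6 (8.45%) lower at p under 0.05, against 7.66% and 9.45% of all tested genes, and 23 (32.4%) were higher and 13 (18.3%) lower without overlap, against 17.4% for each direction. The list of transcription factors, with 12 tested, held 5 of the 11 higher and 2 of the 6 lower genes at p under 0.05. It also held 6 of the 23 higher and 2 of the 13 lower genes without overlap. The median difference of the 71 was 0.28. Sult2b1, the sulphotransferase that makes cholesterol sulphate in epidermis, had FPKM 513 and 378 in the Krt6a+ libraries, against 58.0, 24.3 and 75.8 in the WAP+ libraries. Both Krt6a+ libraries were several times above every WAP+ library, and the log2 difference was 3.07 ± 0.53 SE (limma, adjusted p = 0.0520). It passed with a pseudocount of 5 (adjusted p = 0.0473), a stricter filter (0.0376), genes above 0 in all libraries (0.0264) and quantile normalization (0.0386), and its adjusted p ran up to 0.202 over the alternatives. Its list, with the sterol synthesis genes Hmgcs1 (log2 1.26 ± 0.61 SE) and Sqle (1.00 ± 0.49 SE), had positive differences for 5 of 5 tested genes, and 0 of them passed. The difference of Sqle was 0.35 without Krt6a+ library 2 and 1.65 without library 3.

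Genes that assemble, move and recycle ceramides went both ways. Cyp4f39, the hydroxylase that prepares ultra-long fatty acids for the skin ceramides, had FPKM 63.7 and 14.6 in the Krt6a+ libraries, against 5.71, 5.78 and 8.48 in the WAP+ libraries, without overlap (limma, log2 1.96 ± 0.73 SE, adjusted p = 0.221). As with Abca12, library 2 was the higher Krt6a+ library, and the log2 difference was 0.84 without it and 3.08 without library 3. In the same list Abhd5, a lipase cofactor, had a difference of -0.81 ± 0.47 SE, Slc27a4, a fatty acid transporter, -1.32 ± 0.88 SE (-2.42 without Krt6a+ library 2 and -0.23 without library 3), and Pnpla1, the acyltransferase that completes the skin ceramides, was listed at 0 throughout. Gltp, a glycolipid transfer protein, had FPKM 241 and 127 in the Krt6a+ libraries, against 80.2, 42.9 and 61.5 in the WAP+ libraries (limma, log2 1.42 ± 0.45 SE, adjusted p = 0.171), and its log2 difference was 0.86 without Krt6a+ library 2 and 1.99 without library 3. Col4a3bp, the transfer protein that carries ceramide to the Golgi, had FPKM 15.2 and 9.39 in the Krt6a+ libraries, against 2.83, 3.46 and 4.78 in the WAP+ libraries (limma, log2 1.38 ± 0.63 SE, adjusted p = 0.312). Both were higher in each Krt6a+ library than in any WAP+ library, while Smpd4, a neutral sphingomyelinase, was lower, at 0.497 and 0.392 in the Krt6a+ libraries, against 5.94, 4.19 and 1.88 FPKM in the WAP+ libraries (limma, log2 -1.75 ± 0.65 SE, adjusted p = 0.225). Smpd4 passed the filter only through its WAP+ libraries. The list of glucosylceramide and sphingomyelin turnover had 0 of 12 tested genes past the threshold and a median of 0.93.

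Regulators of the first step of ceramide synthesis differed in direction. Ormdl3, an inhibitor of serine palmitoyltransferase, had FPKM 0.216 and 0.277 in the Krt6a+ libraries, against 11.0, 6.31 and 4.90 in the WAP+ libraries (limma, log2 -2.74 ± 0.64 SE, adjusted p = 0.0932). It passed with genes above 0 in all libraries (adjusted p = 0.0483), and its adjusted p ran up to 0.237 over the alternatives. Ormdl3 and Ormdl1 passed the filter only through their WAP+ libraries. Its paralog Ormdl1 differed by -1.45 ± 0.63 SE without overlap, while Ormdl2 had 39.0 and 24.1 in the Krt6a+ libraries, against 22.6, 19.3 and 11.2 FPKM in the WAP+ libraries (limma, log2 0.70 ± 0.50 SE, adjusted p = 0.509). Sptssa, the small subunit that activates the enzyme, differed by -1.14 ± 0.62 SE. Left-out Krt6a+ libraries moved these values, without library 2 and without library 3, to 0.27 and 1.14 for Ormdl2 and to -0.38 and -1.88 for Sptssa. Of the 14 tested genes of ceramide synthesis, 0 passed and the median was 0.11, and of the 10 of chain elongation, 0 passed and the median was -0.31, with Hsd17b12 at -0.85 ± 0.50 SE and Hacd1 at -1.18 ± 0.75 SE. The difference of Hsd17b12 was -0.33 without Krt6a+ library 2 and -1.36 without library 3, and that of Hacd1 -1.85 without WAP+ library 1.

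Genes that handle sphingosine 1-phosphate, the signalling product of ceramide breakdown, included wide gaps between the populations. Spns2, its exporter, had FPKM 187 and 36.1 in the Krt6a+ libraries, against 9.97, 7.43 and 14.7 in the WAP+ libraries (limma, log2 2.77 ± 0.76 SE, adjusted p = 0.125). Sphk1, a kinase that makes it, had FPKM 0.318 and 48.7 in the Krt6a+ libraries, against 134, 61.6 and 95.8 in the WAP+ libraries (limma, log2 -3.66 ± 1.24 SE, adjusted p = 0.189). Both Krt6a+ values lay outside the WAP+ range for each gene, but the Krt6a+ libraries were far apart, and without Krt6a+ library 3 both genes passed (limma, adjusted p = 0.0264 for Spns2 and 0.00373 for Sphk1), with the lone Krt6a+ library then assumed to vary like the WAP+ libraries. Without Krt6a+ library 2 neither did, and the log2 differences were 1.504 for Spns2 and -1.13 for Sphk1. Sphk2, the paralog of Sphk1, went the other way without overlap. It had FPKM 4.75 and 4.95 in the Krt6a+ libraries, against 1.63, 0.811 and 1.34 in the WAP+ libraries (limma, log2 1.31 ± 0.62 SE, adjusted p = 0.333). Sgpp1, a phosphatase that reverses the kinase step, differed by 1.54 ± 0.65 SE, and 0 of the 8 tested genes of this list passed.

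Among lipoxygenases, Alox12e, an epidermal enzyme of mice, had the highest listed FPKM of the family in both Krt6a+ libraries. Alox12b and Alox5, at 0 in all 5 libraries, could not be ranked. It had FPKM 13.0 and 32.1 in the Krt6a+ libraries, against 10.2, 5.56 and 0.186 in the WAP+ libraries (limma, log2 2.22 ± 0.96 SE, adjusted p = 0.291), and also led in WAP+ library 1, while Aloxe3 led in WAP+ libraries 2 and 3. Alox12 differed by 1.43 ± 0.79 SE. The difference of Alox12e was 1.26 without WAP+ library 3 and that of Alox12 was 0.79 without WAP+ library 2, and Sdr9c7, the dehydrogenase that acts after Aloxe3, was listed at 0 throughout. In the lamellar body list, the adaptor subunit Ap1s1 differed by -0.97 ± 0.60 SE and the tight junction protein Cldn1 by -0.60 ± 0.39 SE, and 0 of 7 tested genes passed. The difference of Ap1s1 was -1.61 without Krt6a+ library 2 and -0.31 without library 3.

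Of the transcription factors known to act on barrier genes, Grhl3, which is required for the skin barrier in mice, had FPKM 37.8 and 119 in the Krt6a+ libraries, against 8.03, 2.13 and 1.73 in the WAP+ libraries. Every Krt6a+ value was above every WAP+ value, and the log2 difference was 3.91 ± 0.68 SE (limma, adjusted p = 0.0520). It passed with a pseudocount of 5 (adjusted p = 0.0473), a stricter filter (0.0376) and genes above 0 in all libraries (0.0278), and its adjusted p ran up to 0.202 over the alternatives. Grhl1 had 40.5 and 32.2 in the Krt6a+ libraries, against 13.1, 5.97 and 7.70 FPKM in the WAP+ libraries (limma, log2 1.86 ± 0.50 SE, adjusted p = 0.121), and Tfap2c, an AP-2 factor, 4.22 and 0.876 in the Krt6a+ libraries, against 17.8, 13.5 and 12.6 FPKM in the WAP+ libraries (limma, log2 -2.38 ± 0.65 SE, adjusted p = 0.126), with a difference of -1.57 without Krt6a+ library 3. Of the 12 tested factors, 0 passed, 6 were higher and 2 lower without overlap, and the median was 0.60. Over all tested genes, 17.4% were higher and 17.4% lower without overlap. Without Krt6a+ library 2, Grhl3 had an adjusted p of 0.0495 (limma), the lone Krt6a+ library being assumed to vary like the WAP+ libraries. Ppara was listed at 0 throughout.

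**Figure D4:**
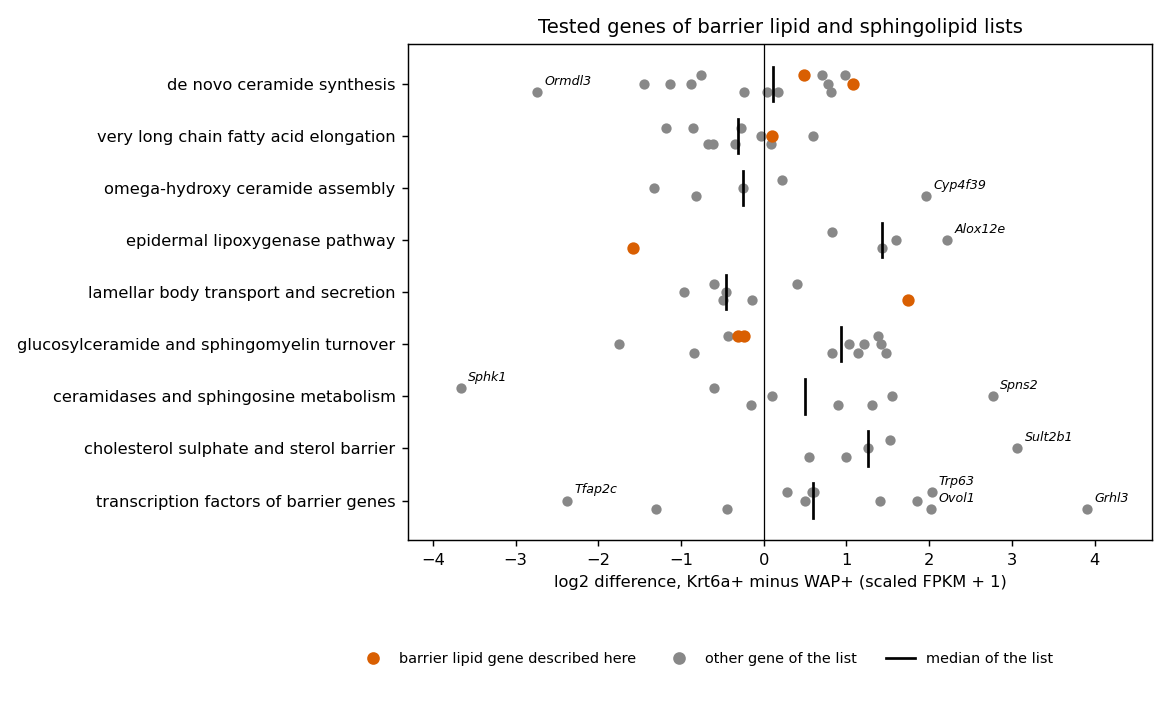
Log2 difference, Krt6a+ minus WAP+, of every tested gene (points) in the 9 lists; orange points are the tested genes among the 9, grey points the other genes of each list, and black lines the medians of the lists. Grhl3 at 3.91 and Sult2b1 at 3.07 lay farthest to the right and Sphk1 at -3.66 farthest to the left, and 0 of the points passed the adjusted threshold.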

How the data were processed

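RNA was measured in 2 Krt6a+ and 3 WAP+ libraries. SMART-Seq v4 amplification, Nextera libraries and 100 bp paired HiSeq reads were used, per the labels' protocols. TopHat, Cufflinks and mm10 are named in the submitters' processing notes; their versions, and any filters, were not given in the sources used here. Per the file headers, the authors deposited, for each of 34535 transcripts, an FPKM with 95% bounds and a coverage signal, which was not used.

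FPKM was summed by symbol and scaled by library (factors are the median ratio over 5334 genes that reached FPKM 1 throughout; 0.980 and 1.13 for Krt6a+, 1.14, 0.909 and 0.873 for WAP+). Genes that reached FPKM 1 in at least 2 libraries were tested, and log2(scaled FPKM + 1) was fitted with limma 3.58.1 in R 4.3.3 (mean-variance trend, two-sided, Benjamini-Hochberg). Means ± SD are of scaled FPKM, and values per library are as deposited. A log2(FPKM + 1) difference understates changes of low genes. An exact permutation test of 2 against 3 libraries cannot go below p = 0.1 and was not used. The procedure was tested on simulated data with changes placed only in genes of higher level, so that test does not cover the low genes of the set.

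Fragments behind a value were estimated from the upper bound as Poisson error. Of single-transcript values implying at most 200 fragments, 38.4% to 42.2% came within 0.02 of whole, too few to recover reads for a count model. The fragments given beside low genes are estimates, and the spread between libraries can be wider than they imply. Bounds cover counting error only. Locus starts were raised by 1 to count from 1, and exons, strand and overlaps are from GENCODE M21 (GRCm38). Promoters are from RefSeq (GRCm38.p6); 8 of the 9 genes matched, Aloxe3 excepted.

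The genes and lists were chosen with earlier results of these data known. The genes named were all 9 of the set, up to 3 tested genes per list by moderated statistic, and the nearest profiles to the gene with the largest statistic and the largest SD, which was Abca12 in both cases. Family members, Ormdl2, Sphk2, keratins and genes listed at 0 were named after their values were seen. Alternatives covered the pseudocount, filter, scaling, trend, choice of transcript, a replicate block and each library left out.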

Additional observations from a re-analysis of the deposited data

How the results depend on the processing

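None of the 7 tested genes passed the threshold in any of 15 alternatives (95 fits of single genes, lowest adjusted p = 0.127, Aloxe3 without Krt6a+ library 3). Cers3 stayed positive (log2 0.49 to 1.56), and Aloxe3 (-2.45 to -0.68) and Smpd1 (-0.43 to -0.12) stayed negative, wherever they could be fitted. Abca12 had log2 0.75 to 3.23 where it was fitted. It passed the filter only through its Krt6a+ libraries, so the filter itself favoured a positive sign, which is no support. Directions turned for Elovl4 under a replicate block (-0.26) and a pseudocount of 0.1 (-0.13), and with 1 library left out for Elovl4 (-0.256 to 0.938), Ugcg (-0.862 to 0.245) and Sptlc2 (-0.0641 to 1.05); the cause was not tested. Abca12 could not be fitted when Krt6a+ library 2 or library 3 was left out, with the stricter filter, or with genes above 0 in all libraries. Genes of the set whose groups did not overlap numbered 1 to 3 higher and 1 to 2 lower as libraries were left out. In these settings 22.4% to 31.6% of all tested genes were higher and 22.1% to 33.2% lower without overlap. The higher count was 0 with the stricter filter and 1 with genes above 0 in all libraries, where fewer of the set were tested. The shares over all genes were not computed for these filters.

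Over all genes, 25 were higher and 42 lower. The counts were 6 and 20 with a pseudocount of 0.1, 2 and 3 with no filter, 71 and 92 with a stricter filter (FPKM 5), 69 and 64 with genes above 0 in all libraries, and 7 and 9 with no mean-variance trend. With a pseudocount of 5, 41 were higher, with quantile normalization 39 were higher, and with no scaling 27 were lower. Leaving out 1 library gave 2 to 44 higher and 3 to 103 lower. With replicate number as a block the counts were 15 and 19. Same-numbered libraries deviated from their group means with correlations of 0.05 and 0.00. The 2 Krt6a+ libraries deviate from their mean by equal and opposite amounts, so this check could show little either way. The numbers are not shown to pair the libraries. Values listed at 0 limit Abca12, Elovl4, Nipal4 and Alox12b, and libraries with few fragments limit Cers3 and Ugcg.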
